A study of Mus musculus with 27 samples.

Results

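The populations compared here are the single-positive ones, the PD1+KLRG1- and the PD1-KLRG1+ CD8+ T cells sorted from MC38 tumours of mice given the treatment labelled Tri. The members were taken by their labels, as the libraries whose title carries Tri and the gate PD1+KLRG1- (5 libraries) or PD1-KLRG1+ (4 libraries), which makes 9 of the 27 libraries of the series. MC38 is a line of mouse colon adenocarcinoma. Tumours were digested, viable cells positive for CD45, CD3 and CD8 were sorted by antibodies to PD-1 and KLRG1, and RNA was counted per gene. Tri denotes a combined immunotherapy, which the design text of the series shortens to TCT. The labels name neither its parts nor the strain and age of the mice. All 9 libraries carry Tri, so what follows compares gates within a treatment and says nothing of an effect of the treatment. The Tri PD1+KLRG1+ (5 libraries) and PD1-KLRG1- (5 libraries) populations are drawn on near the end. Whether every library stems from its own mouse is not stated, so p-values measure only the spread between these samples.

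The inhibitory receptor PD-1 (gene Pdcd1) is one that T cells display after antigen-receptor signalling and keep when antigen persists. KLRG1 is an inhibitory lectin-like receptor that marks late effector CD8+ T cells. In tumours and chronic infection, T cells under lasting antigen exposure come to display several inhibitory receptors together and to depend on the transcription factor TOX, while late effector cells rely on factors such as KLF2 and circulate through blood by way of sphingosine-1-phosphate receptors. Granzymes are proteases that killer cells deliver with perforin into target cells.

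The PD1-KLRG1+ libraries were the shallower ones. Totals ran from 12090152 to 21204098 counts in PD1+KLRG1- and from 8586184 to 11989076 in PD1-KLRG1+ libraries, without overlap (2-sided exact permutation p = 0.0159, the smallest that 5 against 4 libraries allow, and 0.0437 after Benjamini-Hochberg adjustment over 11 measures). CPM below are counts scaled to a common library total, with edgeR's correction for library composition. Exceptions that use raw totals are listed with the processing. Of 7081 genes whose median reached 20 CPM, 0.0339% ± 0.0552 (SD, n = 5) had no count in a PD1+KLRG1- library and 0.533% ± 0.425 (n = 4) in a PD1-KLRG1+ library (exact permutation p = 0.0159, adjusted 0.0437). Thinned to 8586184 counts, PD1+KLRG1- libraries held 14300 ± 818 genes with a count (SD, n = 5). PD1-KLRG1+ libraries held 12460 ± 892 (n = 4; exact permutation p = 0.0476, adjusted 0.0873). The part of depth and of missing genes in the differences below was not tested. Replicates correlated at 0.857 to 0.929 on the log2 CPM scale in PD1+KLRG1- and at 0.828 to 0.907 in PD1-KLRG1+ libraries.

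The transcripts of the sort followed the gates. Pdcd1 (ENSMUSG00000026285) was at 1294, 1121, 1069.7, 1117 and 1634 CPM in PD1+KLRG1- libraries, against 172, 46.8, 69.8 and 81.2 CPM in PD1-KLRG1+ libraries. Klrg1 (ENSMUSG00000030114) was at 7.95, 4.63, 8.05, 3.51 and 1.47 CPM in PD1+KLRG1-, against 224, 266, 349.7 and 186 CPM in PD1-KLRG1+. The groups did not overlap for either gene. The gates chose the cells by these proteins, so these values check the labels and are no finding. The pan-T and CD8 transcripts Cd8a, Cd8b1, Cd3d, Cd3e, Cd3g, Trac and Ptprc were all abundant in both populations, and Cd4 averaged 0.867 CPM in PD1+KLRG1- and had no count in PD1-KLRG1+ libraries.

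Of 13288 genes tested, 223 (1.68%) rose and 257 (1.93%) fell in PD1+KLRG1- relative to PD1-KLRG1+ cells at an adjusted p under 0.05 (edgeR quasi-likelihood test, Benjamini-Hochberg over all genes). The change was at least 2-fold for 194 of those that rose and 175 of those that fell. The libraries of both groups did not overlap for 1631 genes (12.3% of those tested), 425 of them among the 480 called in either direction (3.61%). Among them 1003 (7.55% of genes tested) were higher and 628 (4.73% of genes tested) lower in PD1+KLRG1-. The median log2 fold change over all genes tested was 0.06. For every list count below, the share of all genes tested was 1.68% called higher and 1.93% called lower. Among the calls, 42 genes that rose had no count in any PD1-KLRG1+ library and 4 that fell had none in any PD1+KLRG1- library. The libraries fall into name series by a suffix in their descriptions. In those without the suffix alone (3 against 3) 108 genes rose and 101 fell, and in those with it (2 against 1, the lone PD1-KLRG1+ library being assumed to vary like the other groups) 1 rose and 0 fell. DESeq2 called 579 higher and 393 lower. Without PD1+KLRG1- replicate 3, 171 genes were called lower. All p-values given for genes below are from the edgeR test, adjusted over all 13288 genes, and fold changes are log2, PD1+KLRG1- over PD1-KLRG1+, with the standard error. In bulk RNA, fewer cells that express a gene and less of its RNA per cell cannot be told apart.

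**Figure D1:**
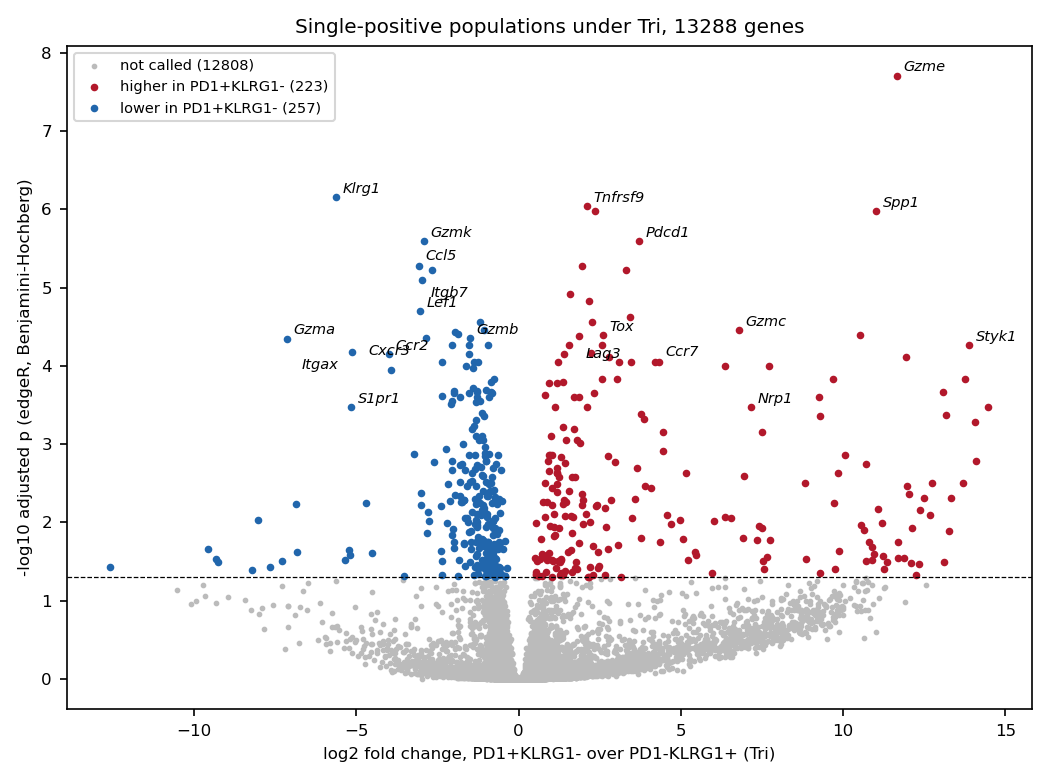
Log2 fold change of PD1+KLRG1- over PD1-KLRG1+ under Tri (x axis) against the negative log10 of the adjusted p (y axis) for the 13288 genes tested, each point a gene. The 223 genes called higher lie to the right and the 257 called lower to the left above the dashed line at an adjusted p of 0.05; Gzme has the smallest p, and the sort genes Pdcd1 and Klrg1 are labelled with others of the text.

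The granule proteases divided between the populations. PD1+KLRG1- cells held the transcripts of the clustered granzymes C to G, which lie next to Gzmb in the mouse genome, and PD1-KLRG1+ cells held more Gzma, Gzmb and Gzmk. The 4 upstream sequences are shown because 3 neighbouring clustered granzymes rose together while Gzma, on another chromosome, fell. Each is the 250 bases before the gene's start, 5′ to 3′ on the gene's own strand, from RefSeq on GRCm38.p6, and all lie on the minus strand: Gzmd at chr14:56132594-56132843, Gzme at chr14:56120626-56120875, Gzmg at chr14:56159580-56159829 and Gzma at chr13:113100982-113101231. Capitals mark GGAAA or its reverse complement TTTCC, the core bound by NFAT factors among others.
Gzmd: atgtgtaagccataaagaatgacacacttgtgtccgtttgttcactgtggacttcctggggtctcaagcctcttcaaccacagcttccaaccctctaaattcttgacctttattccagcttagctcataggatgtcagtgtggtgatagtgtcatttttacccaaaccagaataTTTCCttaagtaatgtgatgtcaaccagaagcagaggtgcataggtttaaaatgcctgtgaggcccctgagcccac
Gzme: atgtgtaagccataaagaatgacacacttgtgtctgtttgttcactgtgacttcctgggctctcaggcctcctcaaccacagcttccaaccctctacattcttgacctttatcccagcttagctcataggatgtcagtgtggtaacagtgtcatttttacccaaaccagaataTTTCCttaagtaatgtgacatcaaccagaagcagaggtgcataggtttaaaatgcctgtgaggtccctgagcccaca
Gzmg: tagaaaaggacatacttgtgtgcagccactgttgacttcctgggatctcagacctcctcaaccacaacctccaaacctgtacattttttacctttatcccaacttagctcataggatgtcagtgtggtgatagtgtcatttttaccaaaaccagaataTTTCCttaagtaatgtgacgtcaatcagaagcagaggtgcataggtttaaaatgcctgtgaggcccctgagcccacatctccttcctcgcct
Gzma: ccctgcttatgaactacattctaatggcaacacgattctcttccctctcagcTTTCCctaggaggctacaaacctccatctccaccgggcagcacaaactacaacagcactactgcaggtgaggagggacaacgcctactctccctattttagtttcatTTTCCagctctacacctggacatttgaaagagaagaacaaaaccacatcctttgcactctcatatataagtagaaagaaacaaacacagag
Gzmd, Gzme and Gzmg had 1 match each and Gzma had 2. Of the granzymes not shown, Gzmf, which rose, had 1. Gzmc, which rose, and Gzmb and Gzmk, which fell, had 0. The starts used for Gzmc, Gzmb and Gzmk were not found in a transcript of the gene. GGAAA on either strand occurs in 55.57% of 32851 promoters of the same length (18254). TGANTCA, the AP-1 motif, was searched on both strands too and had no match in the 4, against 6.75% of promoters. Gzmb, on the same chromosome as the clustered granzymes, had 1 match to it. In global alignments, Gzmd and Gzme share 95.2% of the 250 bases, Gzmd and Gzmg 83.6%, Gzme and Gzmg 84.8%, and Gzmd and Gzma 52.4%. These matches describe letters and no binding.

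Gzmd (ENSMUSG00000059256) was at 214, 222, 176, 203 and 206 CPM in PD1+KLRG1- libraries, and it had no count in any PD1-KLRG1+ library. It was therefore at least 2564-fold higher against a floor of 3 counts over the 4 libraries (adjusted p = 3.32e-04). Gzme (ENSMUSG00000022156) was at 119, 83.7, 123, 164 and 123 CPM in PD1+KLRG1- libraries, against 0, 0, 0 and 0.116 CPM in PD1-KLRG1+ libraries, the last being 1 count. The ratio of scaled levels was 4540 with a 95% counting interval of 815 to 179328, which covers counting error only (log2 fold change 11.68 ± 0.58, adjusted p = 1.95e-08; 13.55 without PD1-KLRG1+ replicate 4, which holds that count). Gzmc stood at 534, 572, 504, 339 and 650.4 CPM in PD1+KLRG1-, against 4.02, 6.24, 5.81 and 2.21 CPM in PD1-KLRG1+ (6.79 ± 0.80, adjusted p = 3.52e-05). Gzmf was at 854 ± 99.5 CPM in PD1+KLRG1- and 0.669 ± 1.34 CPM in PD1-KLRG1+ (SD, n = 5 and 4; log2 fold change 10.54, adjusted p = 4.04e-05), and Gzmg was at least 447-fold higher, with 37.9, 48.1, 32.4, 30.8 and 28.6 CPM in PD1+KLRG1- against 0 in all 4 PD1-KLRG1+ libraries. All 5 clustered granzymes were high in every PD1+KLRG1- library and at most at 6.24 CPM in any PD1-KLRG1+ library. They share sequence: of the 50-base stretches of their transcripts, 21.86% of Gzmd, 20.65% of Gzme and 19.77% of Gzmg also occur in another gene, against 4.14% of Gzmc and 7.36% of Gzmf, so the level of each single gene is uncertain where counting could split reads among them.

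Gzma (ENSMUSG00000023132), the tryptase granzyme, was at 12.2, 21.5, 18.1, 6.56 and 0.140 CPM in PD1+KLRG1- libraries, against 1273, 2620.0, 1684 and 889.7 CPM in PD1-KLRG1+ libraries. Every PD1+KLRG1- library lay far below every PD1-KLRG1+ library (-7.14 ± 0.87, adjusted p = 4.47e-05). Gzmk, a further tryptase, was at 141, 70.5, 102, 135 and 78.4 CPM in PD1+KLRG1- and 879, 998, 894 and 674 CPM in PD1-KLRG1+ (-2.92 ± 0.27, adjusted p = 2.57e-06), again without overlap. Gzmb, the main caspase-activating granzyme, was at 1159, 1094, 1062, 915 and 1766 CPM in PD1+KLRG1-, against 3395, 4152, 3239 and 2839 CPM in PD1-KLRG1+ (-1.49 ± 0.18, adjusted p = 4.35e-05). Replicate 5 was the highest of the PD1+KLRG1- libraries, still below every PD1-KLRG1+ library. Prf1, the pore-forming perforin, moved the other way, with 1170.0, 707, 1006, 725 and 1124 CPM in PD1+KLRG1- and 337, 165, 219 and 319.6 CPM in PD1-KLRG1+ (1.86 ± 0.22, adjusted p = 4.10e-05).

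Over the list of 17 cytotoxic molecules, 7 rose (Gzmc to Gzmg, Prf1 and Cst7, the cystatin F that inhibits lysosomal proteases) and 4 fell (Gzma, Gzmb, Gzmk and Fasl). The list median was 0.34 against 0.06 over all genes. Fasl, the ligand of the death receptor Fas, was at 341 ± 26.8 CPM in PD1+KLRG1- and 597 ± 98.7 CPM in PD1-KLRG1+ (-0.80 ± 0.18, adjusted p = 0.0143). Gzmm, at 4.93 ± 2.59 CPM in PD1+KLRG1- and 60.9 ± 10.8 CPM in PD1-KLRG1+, missed the threshold at -3.57 ± 1.00 (adjusted p = 0.054).

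**Figure D2:**
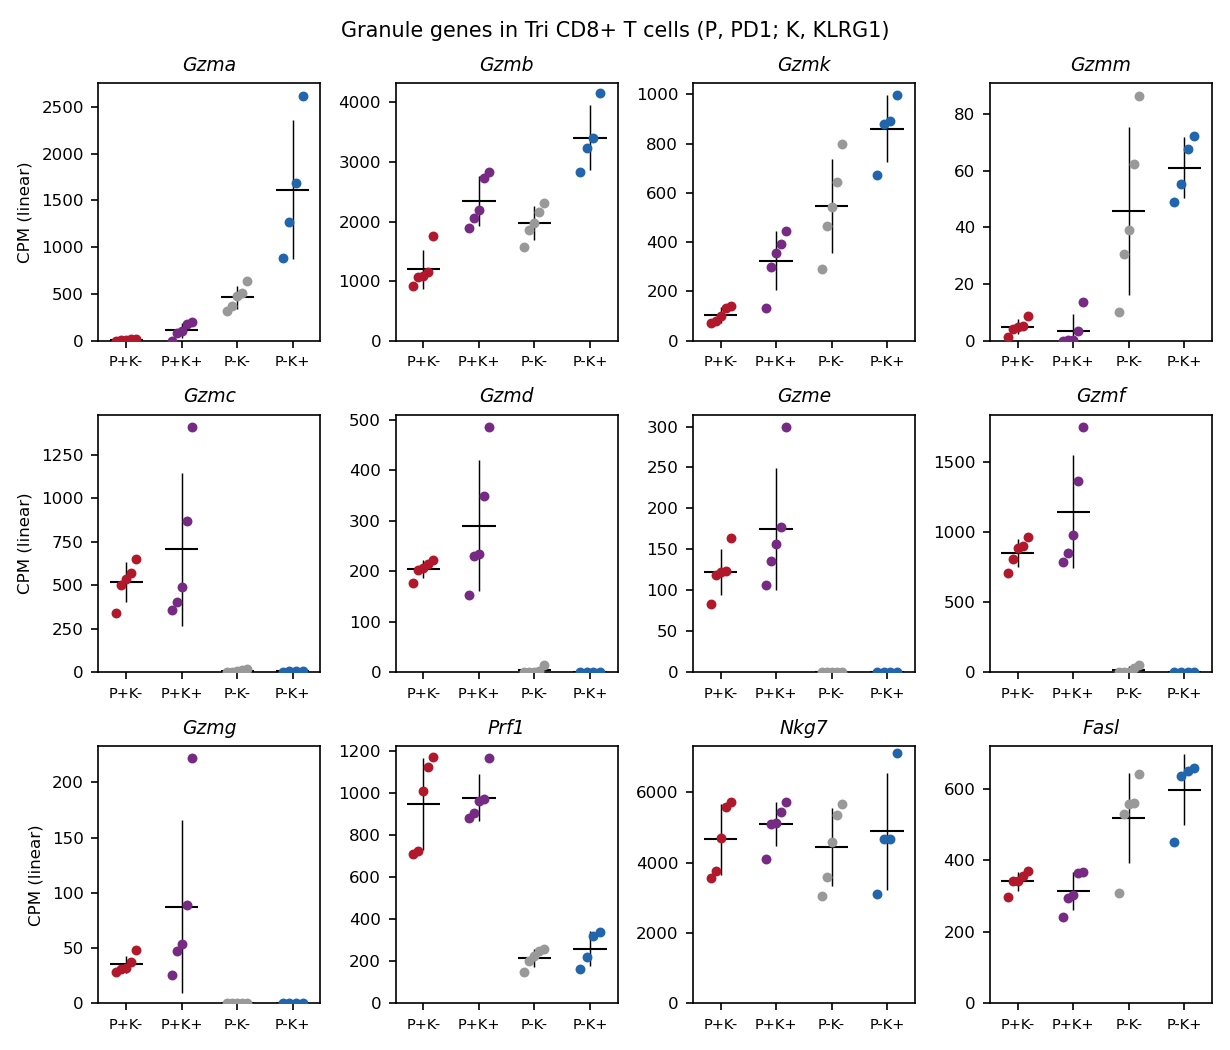
CPM (linear y axis, starting at 0) of 12 granule genes in Tri libraries, each point a library, with the mean (bar) and SD (line); P+K- is PD1+KLRG1- (n = 5), P+K+ PD1+KLRG1+ (5), P-K- PD1-KLRG1- (5) and P-K+ PD1-KLRG1+ (4). The clustered granzymes Gzmc to Gzmg and Prf1 are high in PD1+ groups and low in PD1- groups, and Gzma and Gzmk are lowest in P+K- and highest in P-K+.

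Several inhibitory receptors other than Pdcd1 rose as well. Of the 19 tested, 8 rose, Pdcd1 included, and 1 fell (list median 0.85). Leaving out any 1 library gave 6 to 7 higher calls, and the fit with all 27 libraries gave 4. Lag3 (ENSMUSG00000030124), a receptor that binds MHC class II, was at 79.96, 81.4, 123, 86.7 and 98.8 CPM in PD1+KLRG1- libraries, against 6.74, 17.5, 4.67 and 5.00 CPM in PD1-KLRG1+ libraries. Every PD1+KLRG1- library lay above every PD1-KLRG1+ library (3.46 ± 0.46, adjusted p = 9.02e-05; 4.10 without PD1-KLRG1+ replicate 2). Havcr2, which encodes TIM-3, stood at 273 ± 72.9 CPM in PD1+KLRG1- and 111 ± 36.3 CPM in PD1-KLRG1+ (1.31 ± 0.23, adjusted p = 0.00148), and Tigit, a receptor for the nectin family, at 119 ± 31.6 CPM in PD1+KLRG1- and 59.3 ± 23.5 CPM in PD1-KLRG1+ (1.07 ± 0.24, adjusted p = 0.0116). Cd200, Cd200r1, Cd244a and Cd96 rose too (adjusted p = 2.53e-04, 0.0308, 6.91e-04 and 0.0425). Vsir, the gene of the inhibitory ligand and receptor VISTA, fell, at 204, 134, 244, 216 and 212 CPM in PD1+KLRG1- and 402, 389, 438 and 415 CPM in PD1-KLRG1+ (-1.05 ± 0.18, adjusted p = 0.00141). Ctla4 missed the threshold (0.95 ± 0.34, adjusted p = 0.168).

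Among costimulatory receptors, 3 of the TNF receptor family rose. Tnfrsf9 (ENSMUSG00000028965), which encodes 4-1BB, was at 1703, 1346, 1494, 1307 and 809.9 CPM in PD1+KLRG1-, against 312, 351, 294 and 294 CPM in PD1-KLRG1+ (2.10 ± 0.18, adjusted p = 8.95e-07). All 5 PD1+KLRG1- libraries lay above all 4 others. Tnfrsf18, encoding GITR, had 718, 712, 635, 452 and 329.8 CPM in PD1+KLRG1- and 221, 301, 169.9 and 210.4 CPM in PD1-KLRG1+ (1.35 ± 0.19, adjusted p = 1.59e-04). An unstranded count could not separate its reads from Gm16008, which covers 27.17% of its exonic bases on the other strand. Tnfrsf4, encoding OX40, rose by 3.87 ± 0.61 (adjusted p = 4.74e-04). Slamf7, a homophilic receptor of cytotoxic cells, fell, with 134 ± 7.55 CPM in PD1+KLRG1- and 373 ± 60.02 CPM in PD1-KLRG1+ (-1.42 ± 0.19, adjusted p = 1.05e-04). Of the 12 receptors in the list 3 rose and 1 fell (median 0.19); without PD1+KLRG1- replicate 5 the list had 2 lower calls.

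Among transcription factors, Tox (ENSMUSG00000041272), a factor required for the persistence of exhausted T cells, was at 208, 194, 267, 233 and 222 CPM in PD1+KLRG1- libraries, against 36.5, 32.1, 58.4 and 21.8 CPM in PD1-KLRG1+ libraries. There was no overlap, and the difference of 2.61 ± 0.31 had an adjusted p of 4.04e-05; with all 27 libraries of the series in the fit the p was 0.208. Rbpj, which mediates Notch signalling, was at 298, 261, 389.6, 361 and 481 CPM in PD1+KLRG1- and 69.6, 26.1, 14.3 and 97.6 CPM in PD1-KLRG1+ (2.78 ± 0.36, adjusted p = 7.74e-05). Ikzf2, the gene of Helios, rose by 2.32 (adjusted p = 2.25e-04). These 3 were the calls among the 18 factors of the exhaustion and antigen-receptor list. Fold changes were positive for 15 and negative for 3, with a median of 0.63. The list had 3 higher calls whichever library was left out and 1 with all 27 libraries. Nr4a2 (2.19 ± 0.63, adjusted p = 0.0603) and Bhlhe40 (0.56 ± 0.15, adjusted p = 0.0511) missed the threshold.

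Part of the late effector genes fell in PD1+KLRG1- cells. Of 20 tested, 0 rose and 8 fell, Klrg1 of the gate among them, with a list median of -2.06. Without PD1-KLRG1+ replicate 2, 1 rose. Leaving out any 1 library gave 6 to 7 lower calls, and the fit with all 27 libraries gave 8. Klf2 (ENSMUSG00000055148), the factor that keeps S1pr1 transcribed, was at 12.5, 0.618, 12.8, 16.7 and 1.75 CPM in PD1+KLRG1- libraries, against 228, 302, 211 and 233 CPM in PD1-KLRG1+ libraries (-4.70 ± 0.96, adjusted p = 0.00566; -5.31 without PD1+KLRG1- replicate 4). Every PD1+KLRG1- library was below every other. Klf3 stood at 9.21, 16.9, 7.62, 15.3 and 0 CPM in PD1+KLRG1- and 189, 190.3, 194 and 335 CPM in PD1-KLRG1+ (-4.53 ± 1.12, adjusted p = 0.0244), and its adjusted p was above 0.05 without PD1+KLRG1- replicate 1 (0.0698), 3 (0.0745) or 4 (0.0511) or PD1-KLRG1+ replicate 4 (0.0893). Ly6c2 and Rasa3 fell, with log2 fold changes of -2.05 ± 0.26 and -2.08 ± 0.31 (adjusted p = 5.41e-05 and 3.07e-04). The transcription factor gene Tbx21, of T-bet, missed the threshold (-0.61 ± 0.19, adjusted p = 0.0896), as did Cx3cr1 (0.98 ± 0.39, adjusted p = 0.223).

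The egress receptors moved with them. S1pr1 (ENSMUSG00000045092), the receptor that draws T cells out of tissue along sphingosine-1-phosphate, was at 9.36, 0.618, 8.85, 25.8 and 1.88 CPM in PD1+KLRG1-, against 362, 233, 210.2 and 416 CPM in PD1-KLRG1+ (-5.16 ± 0.78, adjusted p = 3.32e-04; -5.87 without PD1+KLRG1- replicate 4). S1pr5, a further receptor of that lipid, had no count in any PD1+KLRG1- library, against 21.1, 69.8, 17.8 and 67.02 CPM in PD1-KLRG1+, at least 1173-fold lower (adjusted p = 0.0368). Its adjusted p lay between 0.0552 and 0.162 in the fits that left out any 1 of the 9 libraries. In both genes the groups did not overlap, which the rule that named them required. Ccr7, the chemokine receptor that guides T cells into lymph nodes, ran the other way.

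Ccr7 (ENSMUSG00000037944) was at 202, 227, 79.1, 79.2 and 31.1 CPM in PD1+KLRG1- libraries, against 7.87, 5.24, 3.32 and 7.80 CPM in PD1-KLRG1+ libraries (4.32 ± 0.57, adjusted p = 9.02e-05). The PD1+KLRG1- libraries differed widely among themselves but all lay above the others. Of the 17 chemokine and egress receptors tested, 3 rose (Ccr7, Ccr8 and Cxcr6) and 5 fell (among them Ccr2, Cxcr3, S1pr1 and S1pr5), with a median of -0.26. Cxcr6, the receptor of CXCL16 on tissue T cells, had 2418, 1949, 2257, 2332 and 3335 CPM in PD1+KLRG1- against 1353, 1092, 1227 and 1343 CPM in PD1-KLRG1+ (0.94 ± 0.13, adjusted p = 1.65e-04). Cxcr3, the receptor of the interferon-induced chemokines CXCL9 and CXCL10, had 92.9, 69.2, 62.2, 74.3 and 57.9 CPM in PD1+KLRG1- and 561, 563, 558 and 450.4 CPM in PD1-KLRG1+ (-2.85 ± 0.35, adjusted p = 4.44e-05). Ccr2 stood at 48.97, 62.9, 20.7, 66.4 and 26.5 CPM in PD1+KLRG1- and 767, 585, 703 and 851 CPM in PD1-KLRG1+ (-3.99 ± 0.51, adjusted p = 6.98e-05). In all of these the groups did not overlap.

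Integrins divided too. Of 15 chains tested 1 rose and 3 fell (median -0.27). Itgb7, the beta chain that pairs with alpha 4 or alpha E for mucosal homing, was at 140.1, 153, 106, 142 and 106 CPM in PD1+KLRG1-, against 1289, 822, 1063 and 1007 CPM in PD1-KLRG1+ (-2.96 ± 0.31, adjusted p = 7.99e-06). Its partner Itga4 had 116, 99.9, 113, 189.6 and 119 CPM in PD1+KLRG1- and 311, 264, 369.5 and 474 CPM in PD1-KLRG1+ (-1.53 ± 0.19, adjusted p = 5.41e-05), and Itgax, the alpha chain of CD11c, 8.97, 11.8, 6.75, 12.9 and 3.21 CPM in PD1+KLRG1- and 352, 282, 293 and 319 CPM in PD1-KLRG1+ (-5.15 ± 0.65, adjusted p = 6.64e-05). Itgav, which binds RGD ligands and activates TGF-beta, was higher in every PD1+KLRG1- library, at 138, 176, 143, 213 and 193 CPM in PD1+KLRG1- and 56.3, 31.8, 29.9 and 74.3 CPM in PD1-KLRG1+ (1.80 ± 0.30, adjusted p = 8.84e-04); with all 27 libraries in the fit the p was 0.384. Among 13 tissue residency genes, 2 rose (Cxcr6 and Rgs2) and 1 fell, Cd69, an antagonist of S1PR1, at 140.1, 118, 131, 142 and 95.6 CPM in PD1+KLRG1- and 365, 366, 441 and 338 CPM in PD1-KLRG1+ (-1.54 ± 0.20, adjusted p = 6.98e-05). The Rgs2 call (1.28 ± 0.33, adjusted p = 0.0317) was lost without any 1 of 7 libraries (PD1+KLRG1- replicate 1, 3, 4 or 5, PD1-KLRG1+ replicate 1, 3 or 4; adjusted p up to 0.162), which left 1 higher call in the residency list; it was lost with all 27 libraries (0.694) and with no count filter (0.135) too.

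**Figure D3:**
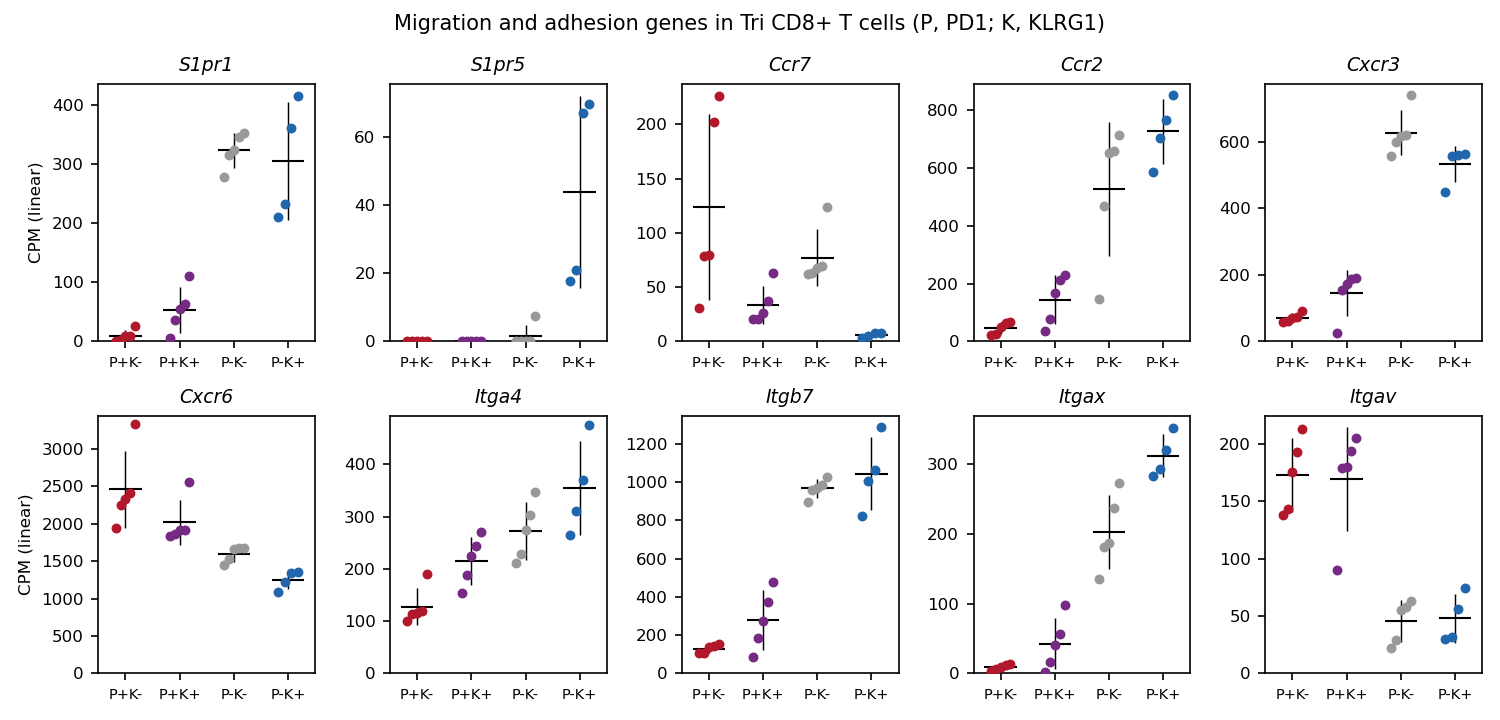
CPM (linear y axis, starting at 0) of 10 migration and adhesion genes in Tri libraries, each point a library, with the mean (bar) and SD (line); P+K- is PD1+KLRG1- (n = 5), P+K+ PD1+KLRG1+ (5), P-K- PD1-KLRG1- (5) and P-K+ PD1-KLRG1+ (4). S1pr1, Cxcr3, Itgb7 and Itgax are low in P+K- and high in P-K+, while Ccr7, Cxcr6 and Itgav run the other way.

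Among 18 stem-like and memory genes tested, 2 rose (Ccr7 and Ltb) and 5 fell (among them Lef1, Slamf6, Satb1 and Eomes), with a median of -0.29. Lef1 (ENSMUSG00000027985), a factor of naive and stem-like T cells downstream of Wnt signalling, was at 18.3, 16.4, 10.3, 31.6 and 34.5 CPM in PD1+KLRG1-, against 143, 102, 209 and 219 CPM in PD1-KLRG1+ (-3.03 ± 0.34, adjusted p = 1.97e-05). Satb1, a chromatin organiser, was at 61.9, 105, 83.5, 118 and 117 CPM in PD1+KLRG1- and 262, 305, 124 and 315 CPM in PD1-KLRG1+ (-1.44 ± 0.27, adjusted p = 0.00298; 0.386 with all 27 libraries). The groups did not overlap for either gene. Eomes, a T-box factor, was at 83.8 ± 17.5 CPM in PD1+KLRG1- and 209 ± 15.8 CPM in PD1-KLRG1+ (-1.29 ± 0.32, adjusted p = 0.0255), a call lost without PD1+KLRG1- replicate 1, 2 or 3 or PD1-KLRG1+ replicate 1, 3 or 4 (adjusted p up to 0.115) and with all 27 libraries (0.213). Ltb, at 1019 ± 122 CPM in PD1+KLRG1- and 629 ± 155 CPM in PD1-KLRG1+, had overlapping groups (0.69 ± 0.16, adjusted p = 0.0164), and its call was lost without PD1+KLRG1- replicate 1 (0.057) or PD1-KLRG1+ replicate 4 (0.0958). Leaving out PD1+KLRG1- replicate 1 or 3, or PD1-KLRG1+ replicate 1 or 4, left as few as 3 lower calls.

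Among secreted molecules, 6 of 17 rose and 1 fell (median 1.11). Spp1 (ENSMUSG00000029304), which encodes osteopontin, was at 694, 374, 569, 291 and 315 CPM in PD1+KLRG1- libraries, against 0.700, 0, 0 and 0 CPM in PD1-KLRG1+ libraries (11.02 ± 0.96, adjusted p = 1.06e-06). All of its 8 counts in PD1-KLRG1+ were in replicate 1, without which the fitted log2 fold change was 15.65 instead. Gm42793 overlaps 18.75% of its exonic bases on the same strand. Ccl1, the ligand of CCR8, was at 144, 133, 123, 52.8 and 46.5 CPM in PD1+KLRG1- and 2.10, 21.6, 3.84 and 5.93 CPM in PD1-KLRG1+ (3.59 ± 0.72, adjusted p = 0.00508; 4.72 without PD1-KLRG1+ replicate 2). Both genes were higher in every PD1+KLRG1- library. Ccl5, the chemokine that effector and memory CD8+ T cells release in quantity, fell, with 316, 181, 329, 227 and 162 CPM in PD1+KLRG1- and 2178, 3481, 2139 and 1499.7 CPM in PD1-KLRG1+ (-3.08 ± 0.31, adjusted p = 5.34e-06). Csf1, Lta, Ltb and Xcl1 made up the other higher calls, and Ifng missed the threshold (1.11 ± 0.38, adjusted p = 0.135). Without PD1+KLRG1- replicate 1 or PD1-KLRG1+ replicate 4, as few as 3 members were called higher.

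Among receptors of cytokines and of killer lectins, 2 of 21 and 2 of 18 members tested were called. The share over all genes tested was 3.61% in either direction. Il2rb, the beta chain shared by the IL-2 and IL-15 receptors, was at 2416, 2491, 2612, 2915 and 3208 CPM in PD1+KLRG1-, against 1386, 884, 982 and 1329.5 CPM in PD1-KLRG1+ (1.22 ± 0.16, adjusted p = 8.92e-05). Ifngr1, a chain of the interferon gamma receptor, was at 876 ± 78.6 CPM in PD1+KLRG1- and 1451 ± 212 CPM in PD1-KLRG1+ (-0.73 ± 0.15, adjusted p = 0.00517; 0.0645 without PD1-KLRG1+ replicate 4). These were the 2 calls among 21 cytokine receptors (median 0.05). Of 18 killer lectin-like and NK receptors 2 rose, Klri2 and Klre1, whose products pair with each other on mouse NK cells (median -0.35). Klri2 had 121, 145, 87.6, 106 and 95.01 CPM in PD1+KLRG1- against 0.350, 0, 0 and 5.93 CPM in PD1-KLRG1+ (6.90 ± 1.60, adjusted p = 0.0157; 9.41 without PD1-KLRG1+ replicate 4). Its call was lost without PD1-KLRG1+ replicate 1, 2 or 3 (adjusted p up to 0.0665) and with all 27 libraries (0.0575). Klre1 lay at the threshold (adjusted p = 0.0499) and was lost without any of 8 libraries, PD1+KLRG1- replicate 4 being the exception (up to 0.23), and with all 27 libraries (0.75).

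The antigen receptor list held 4 higher and 4 lower calls among 20 members (median -0.18). Cd3g and Cd8a rose, at 2435 ± 437 CPM in PD1+KLRG1- and 1268 ± 344 CPM in PD1-KLRG1+ for Cd3g (1.00 ± 0.16, adjusted p = 7.81e-04) and 2168 ± 261 CPM in PD1+KLRG1- and 1222 ± 109 CPM in PD1-KLRG1+ for Cd8a (0.83 ± 0.12, adjusted p = 2.33e-04). So did Ptpn6 and Ubash3b, phosphatase genes that restrain receptor signalling (adjusted p = 0.00542 and 0.00549). The proximal signalling genes Lat, Fyn, Prkcq and Lck fell: Lat, the membrane scaffold, was at 325, 361, 307, 314 and 352 CPM in PD1+KLRG1- and 641, 749, 773 and 666 CPM in PD1-KLRG1+ (-1.08 ± 0.13, adjusted p = 3.52e-05), and Fyn, a Src-family kinase, at 357, 436, 348, 446 and 393 CPM in PD1+KLRG1- and 876, 503, 816 and 936 CPM in PD1-KLRG1+ (-1.004 ± 0.177, adjusted p = 0.00163). The groups did not overlap for either gene. Leaving out PD1+KLRG1- replicate 1, 3 or 4 or PD1-KLRG1+ replicate 1 or 4 left as few as 2 lower calls.

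Genes that feed back on signalling rose in 4 of 20 cases (Rgs16, Rgs2, Nfkbia and Cd83), with 15 positive fold changes and a median of 0.68. Rgs16, a regulator of G-protein signalling, was at 458, 597, 441, 501 and 569 CPM in PD1+KLRG1- libraries, against 72.96, 26.7, 26.02 and 21.3 CPM in PD1-KLRG1+ libraries (3.66 ± 0.66, adjusted p = 0.00201). The adjusted p was 0.122 with all 27 libraries, and the log2 fold change 4.33 without PD1-KLRG1+ replicate 1. The groups were far apart. Cd83 had 62.7, 88.3, 20.9, 41.2 and 12.01 CPM in PD1+KLRG1- and no count in PD1-KLRG1+, at least 566-fold higher (adjusted p = 0.032), a call lost without PD1+KLRG1- replicate 1, 2 or 3 or any of the 4 PD1-KLRG1+ libraries (up to 0.115) and with all 27 libraries (0.0636). Nfkbia, whose product retains NF-kappaB in the cytoplasm, overlapped between groups (0.86 ± 0.22, adjusted p = 0.03) and was lost without PD1+KLRG1- replicate 1, 2 or 3 or PD1-KLRG1+ replicate 1, 3 or 4 (up to 0.138), with all 27 libraries (0.398) and without the name series as a term (0.128). Between 1 and 3 members were called when a library was left out, with the larger losses without PD1+KLRG1- replicate 1, 2 or 3 or PD1-KLRG1+ replicate 1, 3 or 4. Of 15 AP-1 and KLF factors 3 fell (Klf2, Klf3 and Klf13), with 1 lower call at fewest when PD1+KLRG1- replicate 3 or 4 or PD1-KLRG1+ replicate 4 was left out, and a median of 0.40.

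Interferon-stimulated genes fell in 6 of 20 cases and rose in none, with 17 negative fold changes and a median of -0.98. Usp18, which removes ISG15 and restrains interferon signalling, was at 102, 104, 87.00, 98.5 and 151 CPM in PD1+KLRG1-, against 376, 331, 359 and 299 CPM in PD1-KLRG1+ (-1.64 ± 0.22, adjusted p = 9.88e-05). Zbp1, a nucleic acid sensor, was at 159, 213, 182, 168 and 217 CPM in PD1+KLRG1- and 467, 483, 402 and 442 CPM in PD1-KLRG1+ (-1.24 ± 0.16, adjusted p = 8.92e-05). Both were lower in every PD1+KLRG1- library. Rtp4, Oas1a, Gbp2 and Ifit3 were the others (adjusted p = 2.24e-04, 7.81e-04, 0.00884 and 0.0359), and 10 members were called without PD1+KLRG1- replicate 5.

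In metabolism, 4 of 20 glycolysis and hypoxia genes rose (median 0.43). Tpi1, triosephosphate isomerase, was at 1085, 841, 1049.8, 743 and 584 CPM in PD1+KLRG1-, against 525.7, 543, 527 and 441 CPM in PD1-KLRG1+ (0.80 ± 0.15, adjusted p = 0.00317; 0.0507 without the name series as a term). Bnip3, a hypoxia-induced mitophagy receptor, was at 163, 189.8, 120.4, 138 and 38.5 CPM in PD1+KLRG1- and 10.7, 19.2, 10.99 and 28.2 CPM in PD1-KLRG1+ (2.85 ± 0.57, adjusted p = 0.00515). Its adjusted p was 0.113 with all 27 libraries, its log2 fold change was 3.57 without PD1-KLRG1+ replicate 4, and Gm45507 covers 22.25% of its exonic bases on the other strand. Pgk1 and Pgam1 were the others. Tpi1 and Bnip3 were higher in every PD1+KLRG1- library than in any other. Leaving out PD1+KLRG1- replicate 1 or 3 or PD1-KLRG1+ replicate 3 or 4 left as few as 2 calls. Of 22 oxidative phosphorylation genes 1 fell, Ndufa4 of the respiratory chain (-1.45 ± 0.23, adjusted p = 6.34e-04; median -0.06), and of 24 cell cycle genes none was called by edgeR, with 6 at an unadjusted p under 0.05, 23 negative fold changes, a median of -0.43 and 0 called by DESeq2. Other edgeR fits called 3 of the cell cycle genes lower with only the 9 libraries compared, 1 with no count filter and 1 without the fifth PD1-KLRG1- library. Heat-shock and lipid transport genes had no call among 14 and 18 members (2 and 5 at an unadjusted p under 0.05; 1 called by DESeq2 in each). A heat-shock gene was called in 7 other edgeR fits, among them median-ratio scaling and the fit without PD1+KLRG1- replicate 4, and lipid genes were called with no count filter (1 higher, 1 lower) and with only the 9 libraries compared (1 lower). Among 17 survival genes 1 rose, Traf1 (0.71 ± 0.19, adjusted p = 0.0487), a call lost without any library but PD1+KLRG1- replicate 5 (up to 0.165), with median-ratio scaling (0.0547), with all 27 libraries (0.424) and without the name series as a term (0.0529).

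**Figure D4:**
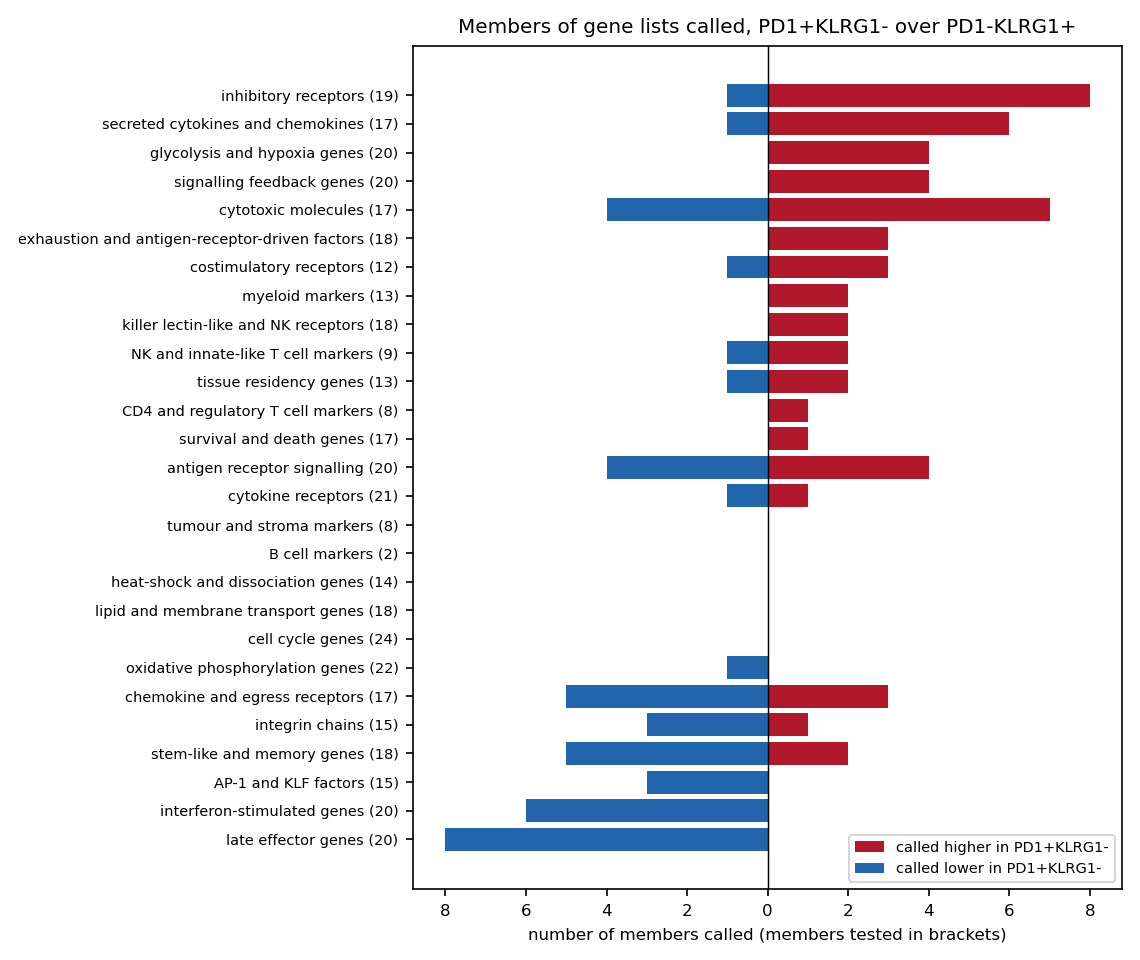
Number of members called higher (right of 0) and lower (left of 0) in PD1+KLRG1- relative to PD1-KLRG1+ (x axis) for 27 gene lists (y axis, with the members tested in brackets), edgeR adjusted p under 0.05. Inhibitory receptors have 8 higher calls and 1 lower, late effector genes 0 higher and 8 lower, and the cytotoxic molecules 7 higher and 4 lower.

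The largest changes by fold included genes outside these lists. They were picked among called genes whose groups did not overlap, so the separation shown here was set by the choice. Igfbp7, a secreted binder of insulin-like growth factors, stood at 236, 124, 143, 89.6 and 175 CPM in PD1+KLRG1- libraries and had no count in PD1-KLRG1+ libraries (at least 1928-fold higher, adjusted p = 5.17e-04). Styk1, a receptor-like kinase known from NK cells, was at 83.6, 114, 109, 132 and 118 CPM in PD1+KLRG1- libraries and without a count in PD1-KLRG1+ libraries (at least 1396-fold, adjusted p = 5.41e-05), and Il1r2, the decoy receptor of interleukin-1, at 115, 116, 152, 92.3 and 147 CPM in PD1+KLRG1- libraries and likewise without a count in PD1-KLRG1+ libraries (at least 1564-fold, adjusted p = 1.45e-04). All 3 were detected in each PD1+KLRG1- library and in no PD1-KLRG1+ library. The same held for Ccdc184, Rgs8, Gpm6b, Nrn1, Slc17a6, Vipr2 and Fam178b, at least 516-fold to 1029-fold higher, with mean levels of 41.1 to 81.9 CPM and adjusted p-values of 4.22e-04 to 0.0128. Fars2 covers 22.28% of the exonic bases of Nrn1 on the other strand. The share of well-expressed genes without a count, given above, also differed between the populations, and its part in these zeros was not tested.

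Besides S1pr5 and Gzma, the largest falls included Dtx1, which encodes a ubiquitin ligase of the Notch pathway, at 1.21, 0, 0.867, 1.48 and 0.419 CPM in PD1+KLRG1- against 120.0, 53.9, 62.1 and 134 CPM in PD1-KLRG1+ (-6.87 ± 1.41, adjusted p = 0.00582). Vipr1, a receptor of vasoactive intestinal peptide, was at 0.388, 0, 0, 0 and 0.907 CPM in PD1+KLRG1- and 15.05, 10.2, 46.4 and 12.9 CPM in PD1-KLRG1+ (-6.82 ± 1.60, adjusted p = 0.024), a call lost without PD1+KLRG1- replicate 2 or 3 or PD1-KLRG1+ replicate 3 (up to 0.0756), and its log2 fold change was -7.89 without PD1+KLRG1- replicate 1 and -5.97 without PD1-KLRG1+ replicate 3. Vipr2, a further receptor of that peptide, was among the genes that rose, so the 2 receptors moved in opposite directions. Cd163l1 had 0, 0, 0.495, 0 and 0 CPM in PD1+KLRG1- and 17.4, 32.3, 33.7 and 25.9 CPM in PD1-KLRG1+ (-8.03 ± 1.65, adjusted p = 0.00941), and without PD1+KLRG1- replicate 3, which holds all its counts there, the log2 fold change was -11.65. Chil5, Fcgrt and Art2b averaged 0.0194, 1.55 and 0.412 CPM in PD1+KLRG1- and 22.7, 65.2 and 15.6 CPM in PD1-KLRG1+ and were each called lower (adjusted p = 0.0221, 0.0299 and 0.0262). The Chil5 call was lost without any PD1+KLRG1- library or PD1-KLRG1+ replicate 4 (up to 0.0706), that of Fcgrt without any library but PD1-KLRG1+ replicate 3 (up to 0.109) and that of Art2b without PD1+KLRG1- replicate 3, 4 or 5 or PD1-KLRG1+ replicate 1, 2 or 4 (up to 0.091).

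Markers of other cells were measured beside these results. The sum of 15 myeloid markers ran from 271 to 776 CPM in PD1+KLRG1- and from 209 to 288 CPM in PD1-KLRG1+ libraries (exact permutation p = 0.0317, adjusted 0.0698 over 11 measures), of which 13 were tested and 2 rose, Cd74 and Fcer1g. Cd74, the MHC class II invariant chain, was at 359.7, 314, 327, 196 and 116 CPM in PD1+KLRG1- against 40.2, 31.8, 60.2 and 25.9 CPM in PD1-KLRG1+ (2.74 ± 0.48, adjusted p = 0.00141; 0.0536 with all 27 libraries). Of the 13 tested, 11 had positive and 2 negative fold changes, with a median of 1.25 against 0.06 over all genes. Lyz2, Apoe and H2-Ab1 averaged 37.3, 45.8 and 60.1 CPM in PD1+KLRG1- and 17.7, 17.8 and 22.3 CPM in PD1-KLRG1+. Adgre1 and Cd14 had 148 and 228 counts over the 5 PD1+KLRG1- libraries and none in PD1-KLRG1+. Mrc1 had none in PD1+KLRG1- and 44 in PD1-KLRG1+. Itgam, the alpha chain of CD11b, averaged 1.85 CPM in PD1+KLRG1- and 65.3 CPM in PD1-KLRG1+ (-5.05 ± 1.67, adjusted p = 0.119), and Cd68 24.5 CPM in PD1+KLRG1- and 38.5 CPM in PD1-KLRG1+ (adjusted p = 0.928). Fcer1g overlapped between groups and its call (2.28 ± 0.55, adjusted p = 0.0199) was lost without PD1+KLRG1- replicate 1 or 3 or PD1-KLRG1+ replicate 1, 3 or 4 (up to 0.0968) and with all 27 libraries (0.164). Spp1, which myeloid cells also transcribe, was higher in PD1+KLRG1- too. Over PD1+KLRG1- replicates 1 to 5 the myeloid sum was 715, 557, 776, 496 and 271 CPM. Spp1 was at 694, 374, 569, 291 and 315 CPM in the same libraries. In PD1-KLRG1- replicate 5, which lacked 3.95% of the well-expressed genes, the sum was 661 CPM and Spp1 32.8 CPM. The part of myeloid cells in the level of Spp1 was not tested.

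The sum of 8 CD4 and regulatory T cell markers ran from 301 to 684 CPM in PD1+KLRG1- and from 90.1 to 138 CPM in PD1-KLRG1+ libraries (exact permutation p = 0.0159, adjusted 0.0437). Nrp1, a coreceptor of semaphorins that CD8+ T cells can also express, was its largest component in PD1+KLRG1-, at 172, 271, 164, 192 and 127 CPM in PD1+KLRG1- and 4.90, 0, 0 and 0 CPM in PD1-KLRG1+ (7.16 ± 1.08, adjusted p = 3.32e-04). Without PD1-KLRG1+ replicate 1, which holds all its counts in that group, the fitted log2 fold change was 14.37. Of the 8 members tested, 6 had positive and 2 negative fold changes, with a median of 0.997. The groups did not overlap for 4, and 1, Nrp1, was called. Ikzf4 averaged 107.72 CPM in PD1+KLRG1- and 7.597 CPM in PD1-KLRG1+. Ctla4 averaged 97.09 CPM in PD1+KLRG1- and 48.66 CPM in PD1-KLRG1+, and Il2ra 69.56 and 38.04 CPM. Which cells these transcripts came from was not tested. Of the defining markers, Cd4 had 71 counts over 5 PD1+KLRG1- libraries and none over the PD1-KLRG1+ libraries, and Foxp3 averaged 2.35 CPM in PD1+KLRG1- (0 to 4.89) and 8.60 CPM in PD1-KLRG1+ (0 to 23.1; adjusted p = 0.926). The B cell sum was 51.2 ± 28.1 CPM in PD1+KLRG1- and 135 ± 28.6 CPM in PD1-KLRG1+ (exact permutation p = 0.0159, adjusted 0.0437), made almost wholly by Ighm, with Ms4a1, Pax5 and Blk at 0 in both. The NK and innate-like sum was 388 to 579 CPM in PD1+KLRG1- and 348 to 424 CPM in PD1-KLRG1+ (exact permutation p = 0.0635, adjusted 0.0998), with Ncr1 and Il23r at 0 in both. In that list Tcrg-C2, a constant segment of the T cell receptor gamma locus, rose, at 231, 155, 259, 194 and 145 CPM in PD1+KLRG1- and 45.8, 42.3, 46.1 and 36.4 CPM in PD1-KLRG1+ (2.26 ± 0.26, adjusted p = 2.76e-05), while the delta constant gene Trdc stood at 0.743 CPM in PD1+KLRG1- and 10.4 CPM in PD1-KLRG1+. The tumour and stroma sum was 523 to 1045 CPM in PD1+KLRG1- and 690 to 1054 CPM in PD1-KLRG1+ (exact permutation p = 0.921, adjusted 0.921), most of it Vim, with Krt8, Krt19 and Kdr at 0 in both. The epithelial marker Epcam had 272 counts over the PD1+KLRG1- libraries and none over the PD1-KLRG1+ libraries (adjusted p = 0.191), and Cdh1 averaged 77.0 CPM in PD1+KLRG1- and 35.6 CPM in PD1-KLRG1+ (adjusted p = 0.804).

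The other Tri populations show where these genes stand when the markers are crossed. For each called gene, a place was computed on log2(mean CPM + 1), with 0 at the PD1-KLRG1+ mean and 1 at the PD1+KLRG1- mean. Among the 223 genes that rose, PD1+KLRG1+ cells lay nearer PD1+KLRG1- in 209 (93.72%), with a median place of 0.887 and quartiles at 0.7502 and 0.9943, and PD1-KLRG1- cells did so in 27 (12.11%; median 0.2073). Among the 257 that fell, PD1+KLRG1+ cells lay nearer PD1+KLRG1- in 219 (85.21%; median 0.7535) and PD1-KLRG1- cells in 22 (8.56%; median 0.1242). Most of the called genes thus lay, by these means, on the side of the population with the same PD-1 gate. The places are a description, since the same PD1+KLRG1- and PD1-KLRG1+ libraries fix the ends of the scale. Of the well-expressed genes, 2.54% to 3.67% had no count in PD1+KLRG1+ replicates 1 to 3 and 3.95% in PD1-KLRG1- replicate 5. The part of this in the places was not tested.

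**Figure D5:**
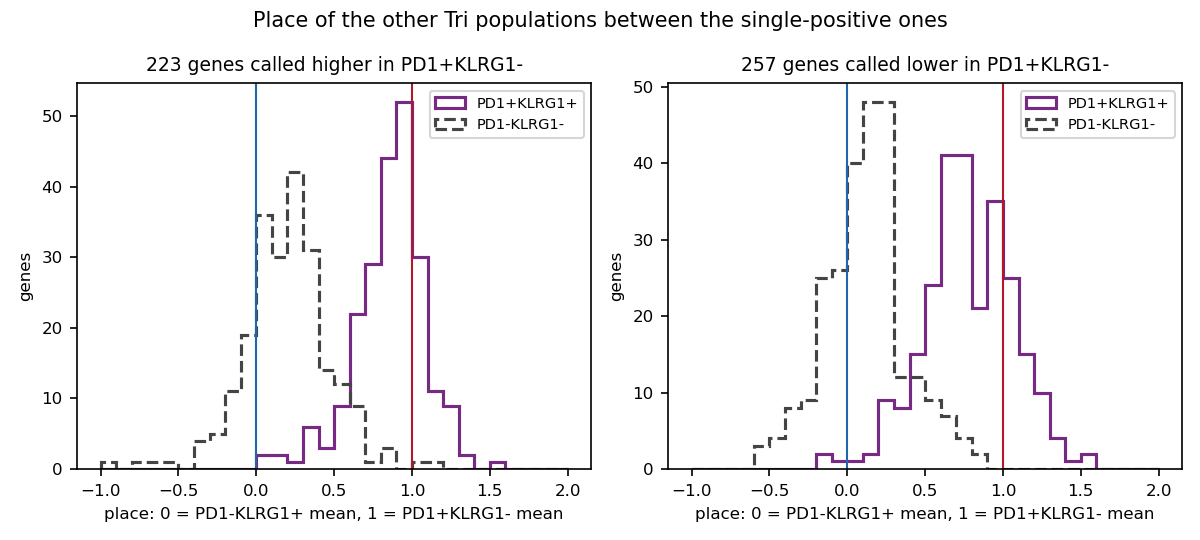
Number of genes (y axis) by place on the scale from the PD1-KLRG1+ mean (0) to the PD1+KLRG1- mean (1), on log2(mean CPM + 1), for the 223 genes called higher (left) and the 257 called lower (right); the solid line is PD1+KLRG1+ and the dashed line PD1-KLRG1-. The median place of PD1+KLRG1+ is 0.887 on the left and 0.7535 on the right, and that of PD1-KLRG1- is 0.2073 and 0.1242.

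Single genes show the spread around these medians. Tnfrsf9 averaged 1159.8 CPM in PD1+KLRG1+, 210.0 CPM in PD1-KLRG1- and 1332 CPM in PD1+KLRG1- libraries, against 313 CPM in PD1-KLRG1+ libraries, so PD1+KLRG1+ cells were close to PD1+KLRG1- cells. Gzma averaged 114 CPM in PD1+KLRG1+, 464 CPM in PD1-KLRG1- and 11.7 CPM in PD1+KLRG1- libraries, against 1617 CPM in PD1-KLRG1+ libraries. S1pr1 averaged 53.8 CPM in PD1+KLRG1+, 323 CPM in PD1-KLRG1- and 9.30 CPM in PD1+KLRG1-, against 305 CPM in PD1-KLRG1+.

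In a test of PD1+KLRG1+ cells against the midpoint of the single-positive populations, 33 genes (0.248% of those tested) lay above and 16 (0.12%) below at an adjusted p under 0.05 (edgeR). Gzme had the smallest p, with 106, 177, 135, 156 and 299 CPM in PD1+KLRG1+ libraries and a difference from the midpoint of 6.32 ± 0.34 on the log2 scale (adjusted p = 5.98e-08; 7.28 without PD1-KLRG1+ replicate 4, the library with its 1 count in that group). Gzmd, Styk1, Il1r2 and Gzmg lay above it as well (adjusted p = 0.00577, 0.00382, 0.00382 and 7.07e-04), and they have no count in PD1-KLRG1+, so their midpoints depend on the prior count of the fit. The Il1r2 call was lost with all 27 libraries (0.11), as were those of Pdlim1, Samd3, Sike1 and Mlh3 below (0.648, 0.669, 0.251 and 0.132). Among genes below the midpoint were Pdlim1, which encodes a PDZ and LIM domain adaptor, at 26.3, 18.7, 32.6, 30.2 and 13.1 CPM in PD1+KLRG1+ (-1.38 ± 0.27, adjusted p = 0.0214), Samd3 (-1.33 ± 0.26, adjusted p = 0.0244), Sike1 (-1.15 ± 0.25, adjusted p = 0.04) and Mlh3, each lost in 4 to 12 of 14 fits that left out a library (adjusted p up to 0.106). Replicates 1 to 3 of PD1+KLRG1+ lacked between 2.54% and 3.67% of the well-expressed genes, and the part of this in the genes below the midpoint was not tested. Without PD1+KLRG1+ replicate 4, 34 genes lay below, and 9 or 10 did so without PD1+KLRG1- replicate 3, 4 or 5 or PD1-KLRG1+ replicate 1, 3 or 4.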

How the data were processed

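The deposited table held counts, whole numbers per mouse gene with no normalisation by the authors, for 27 libraries and 47729 Ensembl gene IDs, 47224 of them named through the GENCODE M21 table. DESeq2 1.26.0 appears in the submitters' processing notes with no role stated. The aligner, counter, strandedness and genome build were not given in the sources used here. Columns were matched to samples by their descriptions. The members, lists and tests were chosen with earlier results of these data known.

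The 19 Tri libraries were fitted in edgeR 4.0.16 (R 4.3.3) with a robust quasi-likelihood model, TMM scaling, a mean per population and the name series as a term. Iso libraries stayed out of the fit, since a library of 93198 counts is among them, and entered as an alternative. filterByExpr at a minimum count of 10 left 13288 genes. Adjusted p-values are Benjamini-Hochberg, genes under 0.05 were called, and a standard error is the log2 fold change over the square root of F. CPM values use TMM-scaled totals, with exceptions that use raw totals. These are the sums of markers of other cells and the threshold of 20 CPM for well-expressed genes. The averages given for Cd4, Foxp3, Ikzf4, Ctla4 and Il2ra beside the CD4 sum, and for Lyz2, Apoe, H2-Ab1, Itgam, Cd68, Trdc and Cdh1, use raw totals too. A group without a count was set to a floor of 3 counts over its libraries, which covers counting error only. Measures of whole libraries were set against each other by 2-sided exact permutation.

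Named genes were those of the sort, the 12 largest called changes in each direction whose higher group averaged at least 10 CPM and whose groups did not overlap (without receptor segments and unnamed clones), up to 2 called members of each list in each direction with the smallest p, and 5 in each direction against the midpoint. Further list members are named to complete a count. Some genes that these rules name are not reported here; they stay in the list counts and sums. Alternatives were median-ratio scaling, other count filters, other sets of libraries, no name series, a replicate block, DESeq2 1.42.0 and leaving out each library. Tested on simulated data with 100 genes changed 2-fold and 100 changed 4-fold among 13288, the PD1+KLRG1- over PD1-KLRG1+ comparison recovered 17 and 58 of them, none with the wrong sign, and called 1 unchanged gene. Promoter sequences came from RefSeq on GRCm38.p6. Alignments used Biopython 1.88 and figures matplotlib 3.10.9 in Python 3.11.15.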

Additional observations from a re-analysis of the deposited data

Results flagged for a closer look

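A library was set apart when its gap to the nearest library of its group, divided by the range of the group, passed Dixon's 95% critical value. This was so for 18 of 198 groups of values, and chance alone gives about 1 in 20.

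In PD1+KLRG1- libraries, replicate 5 was the highest for Gzmb at 1766 CPM and for Usp18 at 151 CPM, and the lowest for the summed tumour and stroma markers at 523 CPM. Replicate 4 was the highest for Itga4 at 189.6 CPM. Replicate 1 was the only library of 5 with Chil5, at 0.0970 CPM, and replicate 3 was the only library of 5 with Cd163l1, at 0.495 CPM.

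In PD1-KLRG1+ libraries, replicate 4 stood apart most often. It was the highest for Klf3 at 335 CPM, Traf1 at 282 CPM, Klri2 at 5.93 CPM and Gzme at 0.116 CPM, and the lowest for Cxcr3 at 450.4 CPM and Tpi1 at 441 CPM. It is also the only library of its group in the name series with the suffix, so the library and the series cannot be told apart within the group. Replicate 1 was the highest for Rgs16 at 73.0 CPM, Nrp1 at 4.90 CPM and Spp1 at 0.700 CPM, replicate 2 for Lag3 at 17.5 CPM, and replicate 3 for Vipr1 at 46.4 CPM. In PD1+KLRG1+ libraries, replicate 4 alone held Mlh3, at 0.0604 CPM. For genes with flagged libraries in a group at or near 0, the flag marks a few counts.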

How the results depend on the processing

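Counts of calls moved between fits. Signs were followed only in the named genes, chosen largely from the calls of the main fit, and do not speak for other genes. Genes called higher in PD1+KLRG1- numbered 223 here, 387 with no count filter, 88 with all 27 libraries, 611 with only the 9 libraries compared, 108 and 1 in the name series without and with the suffix, 579 with DESeq2, and 149 to 191 without 1 library. Genes called lower numbered 257 here and, in the same order, 307, 136, 435, 101 and 0, 393, and 171 to 223. Against the midpoint, 33 genes lay above here, 195 with no count filter, 11 with all 27 libraries, 73 with only the groups compared, 62 without the fifth PD1-KLRG1- library, 1 in the series with the suffix, 242 with DESeq2 and 25 to 44 without 1 library. Below it lay 16, and, with no filter 121, with all 27 libraries 4, without the fifth PD1-KLRG1- library 33, in the series without and with the suffix 61 and 0, with DESeq2 305, and without 1 library 9 to 34. The cause of these moves was not tested. Of 75 named genes called in the comparison, 0 changed sign in any fit and 58 were called whichever library was left out. With all 27 libraries 60 were called, and in the name series without the suffix 53. Calls lost in that series included Dtx1 (edgeR adjusted p = 0.0879), Cd163l1 (0.166), Vipr2 (0.0996), Gpm6b (0.109), Fyn (0.0572) and Satb1 (0.105). DESeq2 called 70, and its adjusted p was missing for the other 5. Deviations of same-numbered libraries of both groups correlated at -0.0027 to 0.137, with 1 of 4 above 0.1 (replicate 4). Differently numbered ones correlated at -0.109 to 0.0827. Replicate 4 is the only number compared that carries the suffix, so number and name series cannot be told apart there. The numbers were not used as pairs in the main fit. These correlations cannot decide whether the numbers mark a shared mouse, which is not given in the sources used here. With a replicate block 198 genes were called higher and 230 lower, 28 above and 8 below the midpoint, and 69 of the named genes were called. Depth limits genes of low count: with counts of 0 in 4 libraries the fold is known only as a bound.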

Other observations

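Families outside the lists were counted after the calls had been seen, so their counts are descriptions without a test. All 8 tested GIMAP genes, small GTPases of lymphocyte survival, had negative fold changes in PD1+KLRG1- relative to PD1-KLRG1+ cells, and 5 were called lower (median -0.68). Gimap4 was at 1058, 1026, 1198, 995 and 1292 CPM in PD1+KLRG1- libraries, against 2073, 2066, 2029 and 1925 CPM in PD1-KLRG1+ libraries (-0.85 ± 0.12, edgeR adjusted p = 2.15e-04), without overlap. All 7 tested immunity-related GTPases, which interferon gamma induces, were negative and 5 were called lower (median -1.32), with Igtp at 219.5, 227, 228, 237 and 287 CPM in PD1+KLRG1- against 684, 565, 519 and 734 CPM in PD1-KLRG1+ (-1.40 ± 0.20, edgeR adjusted p = 1.92e-04). Of 10 PYHIN genes, which include sensors of DNA, 5 were called lower and 0 higher, and of 9 subunits of the actin-branching Arp2/3 complex all were negative and 3 were called lower (Arpc2, Actr3 and Arpc5). Over all genes tested, 1.93% were called lower.

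In the other direction, 2 of 4 IFITM genes, also known as interferon-induced, were called higher. Ifitm1 was at 361, 433, 346, 179 and 198 CPM in PD1+KLRG1- libraries, against 15.8, 38.8, 48.1 and 16.8 CPM in PD1-KLRG1+ libraries (3.43 ± 0.39, edgeR adjusted p = 2.34e-05), and Ifitm2 at 218 ± 82.02 CPM in PD1+KLRG1- and 39.3 ± 27.4 CPM in PD1-KLRG1+ (2.57 ± 0.36, edgeR adjusted p = 1.46e-04; SD, n = 5 and 4). Of 3 metallothioneins, which bind zinc, Mt1 and Mt2 were called higher, Mt1 with 236, 82.2, 126.2, 83.2 and 44.3 CPM in PD1+KLRG1- against 15.2, 16.3, 21.7 and 8.03 CPM in PD1-KLRG1+ (3.04 ± 0.42, edgeR adjusted p = 1.45e-04). Serpins related to the granzyme B inhibitor divided: Serpinb9b was at 315, 202, 144, 260.5 and 369 CPM in PD1+KLRG1- against 8.14, 12.4, 0 and 24.2 CPM in PD1-KLRG1+ (4.57 ± 0.98, edgeR adjusted p = 0.00804), while Serpinb9, the inhibitor itself, was at 272, 215, 238, 217 and 315 CPM in PD1+KLRG1- and 489, 350.1, 442 and 429.8 CPM in PD1-KLRG1+ (-0.80 ± 0.19, edgeR adjusted p = 0.0204), and Serpinb6b was called lower as well. Over all genes tested, 1.68% were called higher. Members of these families resemble each other in sequence, and how reads were shared among them is not given in the sources used here.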
